A study of Mus musculus with 401 samples.

Results

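Levels of RNA are described here for 6 mouse genes whose proteins make the zona pellucida or act at the oocyte surface during fertilization: Zp1, Zp2, Zp3, Astl, Izumo1r and Cd9. They were taken by gene identifier from both count tables and are 6 of the 43633 genes listed in either table. All 6 were listed in both tables and had counts in every oocyte library, so none was lost to a filter on low counts in oocytes. By GENCODE on GRCm38 all are protein coding: Zp1 (ENSMUSG00000024734, chr19:10914287-10920632, minus strand), Zp2 (ENSMUSG00000030911, chr7:120126772-120145291, minus strand), Zp3 (ENSMUSG00000004948, chr5:135980099-135988624, plus strand), Astl (ENSMUSG00000050468, chr2:127338639-127357651, plus strand), Izumo1r (ENSMUSG00000031933, chr9:14885814-14903949, minus strand), Cd9 (ENSMUSG00000030342, chr6:125460266-125494791, minus strand).

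The zona pellucida is the extracellular matrix that the growing oocyte secretes around itself, and the sperm must cross it to reach the egg. ZP1, ZP2 and ZP3 are its glycoproteins in the mouse. ZP2 and ZP3 build the filaments, ZP1 cross-links them, and ZP2 carries the domain to which sperm bind. Astl encodes ovastacin, a metalloprotease stored in cortical granules, which cleaves ZP2 after fertilization so that further sperm no longer bind. Izumo1r encodes JUNO, a GPI-anchored protein of the egg membrane and the receptor for the sperm protein IZUMO1, and Cd9 encodes a tetraspanin of the egg membrane needed for fusion with sperm. Cumulus cells are the somatic cells that surround the oocyte in the follicle, and Cd9 is a gene that many somatic cells also use.

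The libraries came from single germinal vesicle stage oocytes of fully grown follicles and from the pooled cumulus cells of the same complexes, all of female B6D2F1 (C57BL/6 x DBA/2) mice, by RamDA-seq, which sequences total RNA over the full length of transcripts. In the first set, the groups fed ad libitum were young (2 months, 16 oocytes from 2 mouse labels), middle (9 months, 14 oocytes from 4) and old (14 months, 16 oocytes from 2), and the CR group (27 oocytes from 3) was calorie-restricted as adults, kept singly and also 9 months old. One of the old labels, Old1_2, with 11 oocytes, stood for 2 mice that could not be told apart. In the second set, all mice were fed ad libitum and were 2 months (24 oocytes, 5 labels), 4 months (39, 8 labels), 9 months (16, 4 labels), 14 months (16, 5 labels) or 2 months without hyperovulation (32, 8 labels). All other groups of both sets were collected after hyperovulation with equine chorionic gonadotropin or a commercial hyperovulation reagent, and which mouse received which was not given in the sources used here.

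Total counts per library ranged from 559305 to 4536690 in the oocytes of the first set and from 1238441 to 2583456 in those of the second. CR oocytes were sequenced more deeply (median 3578882) than middle oocytes (median 2332126). All 12 oocyte markers were detected in the oocytes of every group. The summed cumulus and granulosa cell markers of oocyte libraries lay at 1.12% to 34.7% of the median cumulus library in the first set, above 10% in 1 young, 2 middle, 4 old and 3 CR oocytes, and at 1.18% to 2.69% in the second set. One complex of the label Middle3 was left out, since its library labelled oocyte held cumulus markers at 134% of the median cumulus library and oocyte markers at 0.889% of the median oocyte. Levels are CPM, counts scaled to a common library total after TMM normalization, so each is a share of a library's RNA, and a smaller share cannot be told apart from more RNA of other genes.

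The start regions of the members are shown because FIGLA, a basic helix-loop-helix factor of the oocyte that drives the zona genes, binds E-boxes, the hexamers of the form CANNTG. RefSeq (GRCm38.p6) gave start regions for 4 of the 6 genes, none of them Zp1 or Zp2. The 250 bases before the start are printed 5′ to 3′ on the strand of the gene, and capitals mark the E-box CAGGTG or its reverse complement CACCTG.
Zp3, plus strand, chr5:135979855-135980104: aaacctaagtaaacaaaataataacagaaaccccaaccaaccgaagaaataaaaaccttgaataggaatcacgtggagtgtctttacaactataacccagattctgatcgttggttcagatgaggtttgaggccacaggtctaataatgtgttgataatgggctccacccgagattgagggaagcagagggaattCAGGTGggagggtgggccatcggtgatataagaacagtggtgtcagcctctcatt
Astl, downstream start, plus strand, chr2:127341386-127341635: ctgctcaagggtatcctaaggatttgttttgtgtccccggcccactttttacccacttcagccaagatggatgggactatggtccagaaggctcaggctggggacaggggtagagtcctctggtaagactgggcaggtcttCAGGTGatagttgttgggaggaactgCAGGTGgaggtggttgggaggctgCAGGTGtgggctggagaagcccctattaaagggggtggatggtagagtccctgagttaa
Izumo1r, minus strand, chr9:14903768-14904017: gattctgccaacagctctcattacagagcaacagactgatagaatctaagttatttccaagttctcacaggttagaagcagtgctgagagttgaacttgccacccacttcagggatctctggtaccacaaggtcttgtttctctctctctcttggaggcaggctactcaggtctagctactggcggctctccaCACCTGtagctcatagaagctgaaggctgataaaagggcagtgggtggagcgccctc
Cd9, minus strand, chr6:125494761-125495010: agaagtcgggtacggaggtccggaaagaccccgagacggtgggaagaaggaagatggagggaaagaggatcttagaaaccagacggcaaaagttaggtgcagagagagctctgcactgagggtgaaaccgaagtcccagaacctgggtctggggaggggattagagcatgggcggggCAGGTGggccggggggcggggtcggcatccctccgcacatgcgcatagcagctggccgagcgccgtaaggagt
The E-box CAGGTG or CACCTG began 55 bases before the RefSeq start of Zp3, 57 before that of Izumo1r and 73 before that of Cd9. It began 109, 83 and 59 bases before the downstream start of Astl. For Zp3, Izumo1r and Cd9 the gene starts of GENCODE differ from those of RefSeq. The printed region of Izumo1r lies mostly within its GENCODE gene, which begins at chr9:14903949 on the minus strand, and so does its marked hexamer. The regions of Zp3 and Cd9 reach into their GENCODE genes only with their last bases. The upstream start of Astl (chr2:127338389-127338638) held none. Other hexamers of the form CANNTG, not marked above, began 181 and 134 bases before the start of Zp3 and 38 and 25 before that of Cd9. Among 32817 start regions of the same length in the table, 17.2% held CAGGTG or CACCTG, and 2.12% held it beginning 50 to 75 bases before the start. The general form CANNTG, which includes both, was in 66.2%, and TATAA or TTATA, found 160 and 29 bases before the start of Zp3 and in none of the other printed regions, in 22.8%. These matches describe letters and not sites of binding. The window of 50 to 75 bases encloses positions seen in these members, so its share is no test of them.

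Transcripts of the zona genes were among the most abundant per length in the oocyte. By mean CPM per kilobase, Zp3 ranked 12 of 35869 genes in the first set and 3 of 37874 in the second, Zp2 ranked 20 in both, and Zp1 36 and 37. Astl ranked 211 and 274, Izumo1r 440 and 252, and Cd9 1527 and 1453. The order Zp3, Zp2, Zp1 from high to low CPM per kilobase held in 72 of 73 oocytes of the first set and 126 of 127 of the second, and Cd9 was the lowest of the 6 in all but 2 oocytes of the first set, in which Astl was lower. The order of Astl and Izumo1r differed between sets, with Astl the higher per kilobase in 56 of 73 and in 47 of 127 oocytes.

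Levels within the second set were close to each other. The highest group mean over mouse labels was 1.08 times the lowest for Zp1, 1.09 times for Zp2, 1.11 times for Zp3, 1.10 times for Astl and for Izumo1r, and 1.11 times for Cd9. The coefficient of variation between oocytes of a group was 9.20% to 24.1% there. In the first set the ratio of the highest to the lowest group mean was 1.13 for Cd9, 1.19 for Zp1, 1.25 for Zp2, 1.38 for Zp3, 2.00 for Izumo1r and 2.04 for Astl, and the coefficient of variation reached 76.0% for Astl in old oocytes. Levels were not compared between the sets.

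By group, the mean ± SD of mouse means is given in CPM, with n = 2, 4, 2 and 3 mouse labels for young, middle, old and CR and n = 5, 8, 4, 5 and 8 for the groups of the second set. Zp1 was at 1269 ± 14.8 in young, 1318 ± 146 in middle, 1103 ± 368 in old and 1167 ± 117 in CR oocytes of the first set. The second set had Zp1 at 1406 ± 64.7 at 2 months, 1401 ± 42.7 at 4 months, 1513 ± 132 at 9 months, 1464 ± 122 at 14 months and 1495 ± 87.5 at 2 months without hyperovulation. Single oocytes of the first set ranged for Zp1 from 784 to 1520.3 in young, 1034 to 1793 in middle, 404 to 1666 in old and 509 to 1544 in CR oocytes, and these ranges overlapped. Zp2 was at 2937 ± 41.6 in young, 2785 ± 521 in middle, 2553 ± 736 in old and 3201 ± 482 in CR oocytes of the first set. The second set had Zp2 at 3118 ± 280.4 at 2 months, 3054 ± 128 at 4 months, 3247 ± 192 at 9 months, 3229.9 ± 356 at 14 months and 3319 ± 132 at 2 months without hyperovulation. Single oocytes of the first set ranged for Zp2 from 1375 to 3937 in young, 2112 to 4178 in middle, 710.3 to 4598 in old and 1465 to 4712 in CR oocytes, and these ranges overlapped. Zp3 was at 2475 ± 240.2 in young, 2234 ± 413 in middle, 1853 ± 622 in old and 1799 ± 234 in CR oocytes of the first set. The second set had Zp3 at 2662 ± 124 at 2 months, 2547 ± 116 at 4 months, 2733 ± 198 at 9 months, 2546 ± 296 at 14 months and 2829 ± 273 at 2 months without hyperovulation. CR and old oocytes had the lowest means of Zp3 and differed from each other by less than the SD of either.

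Among the genes of the oocyte surface and cortical granules, Astl and Izumo1r spread more between groups of the first set than Cd9. Astl was at 535 ± 111 in young, 392 ± 169 in middle, 263 ± 119 in old and 459 ± 43.7 in CR oocytes of the first set. The second set had Astl at 337 ± 21.2 at 2 months, 364 ± 48.1 at 4 months, 370.4 ± 24.8 at 9 months, 370.3 ± 55.9 at 14 months and 342 ± 31.5 at 2 months without hyperovulation. Izumo1r was at 252 ± 42.5 in young, 279 ± 51.2 in middle, 261 ± 27.2 in old and 139 ± 2.005 in CR oocytes of the first set. The second set had Izumo1r at 327 ± 17.1 at 2 months, 347 ± 23.8 at 4 months, 342 ± 17.7 at 9 months, 316 ± 27.4 at 14 months and 344 ± 40.99 at 2 months without hyperovulation. CR stood lowest for Izumo1r, and the young, middle and old means lay within 1 SD of the middle group. Cd9 was at 79.1 ± 4.76 in young, 71.3 ± 15.8 in middle, 77.1 ± 3.77 in old and 70.3 ± 6.58 in CR oocytes of the first set. The second set had Cd9 at 85.2 ± 4.93 at 2 months, 76.7 ± 6.26 at 4 months, 82.2 ± 12.8 at 9 months, 84.3 ± 19.7 at 14 months and 81.6 ± 4.92 at 2 months without hyperovulation. Single oocytes of the first set ranged for Cd9 from 37.2 to 149 in young, 40.03 to 186 in middle, 19.8 to 229.7 in old and 38.8 to 119 in CR oocytes, and these ranges overlapped.

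**Figure D1:**
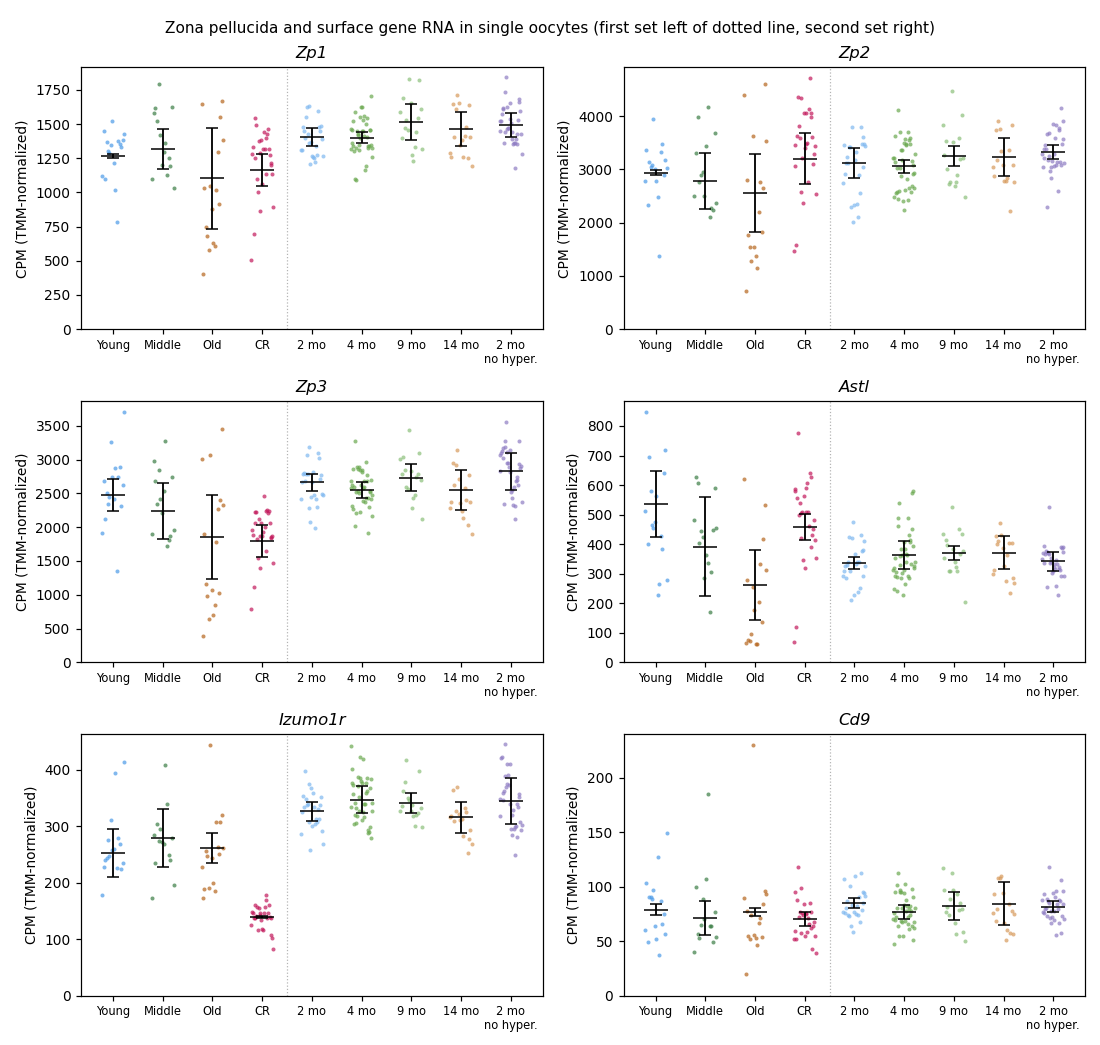
Level of each gene in single oocytes in CPM on TMM-normalized library sizes (linear axes from 0), with 1 point per oocyte and the mean ± SD of the mouse means in black. CR oocytes stand low for Izumo1r (83.4 to 179 CPM), old oocytes hold the lowest values of Astl (from 61.8 CPM), and the groups of the second set lie close to each other.

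Izumo1r RNA was lower in CR than in middle oocytes. It ranged from 83.4 to 179 CPM in CR oocytes (median 141) and from 173 to 408 CPM in middle oocytes (median 273), against 178 to 414 (median 252) in young and 172 to 444 (median 249) in old oocytes. Of the 27 CR oocytes, 26 were below every young, middle and old oocyte. The mouse means were 140, 141 and 137 CPM for CR1, CR2 and CR3 and 231, 304, 339 and 241 CPM for Middle1 to Middle4, of which Middle3 was a single oocyte, so the mouse means did not overlap.

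The log2 fold change of Izumo1r, CR over middle, was −1.05 with an SE of 0.13 and an adjusted p of 0.00251 (edgeR quasi-likelihood F test on counts summed per mouse label). By this test 7.61% of 27072 genes were called, and Izumo1r was the only member among them. With libraries instead of mouse sums as units it was −1.01 (adjusted p = 1.43e-13, 27.8% of genes called). The raw counts were also lower in the deeper libraries, with a median of 467 in CR and 614.5 in middle oocytes. Without the oocytes above 10% of cumulus markers the value was −0.99 (adjusted p = 0.00119), and leaving out any one mouse label gave −1.10 to −0.91. With the left-out complex included it was −0.80 and no longer called (adjusted p = 0.112). CR oocytes came from 3 mice that were also kept singly. Their depth did not overlap that of middle oocytes, with a lowest CR total of 2752043 and a highest middle total of 2624876. Diet, housing, depth and any other handling that set the CR libraries apart cannot be told apart.

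**Figure D2:**
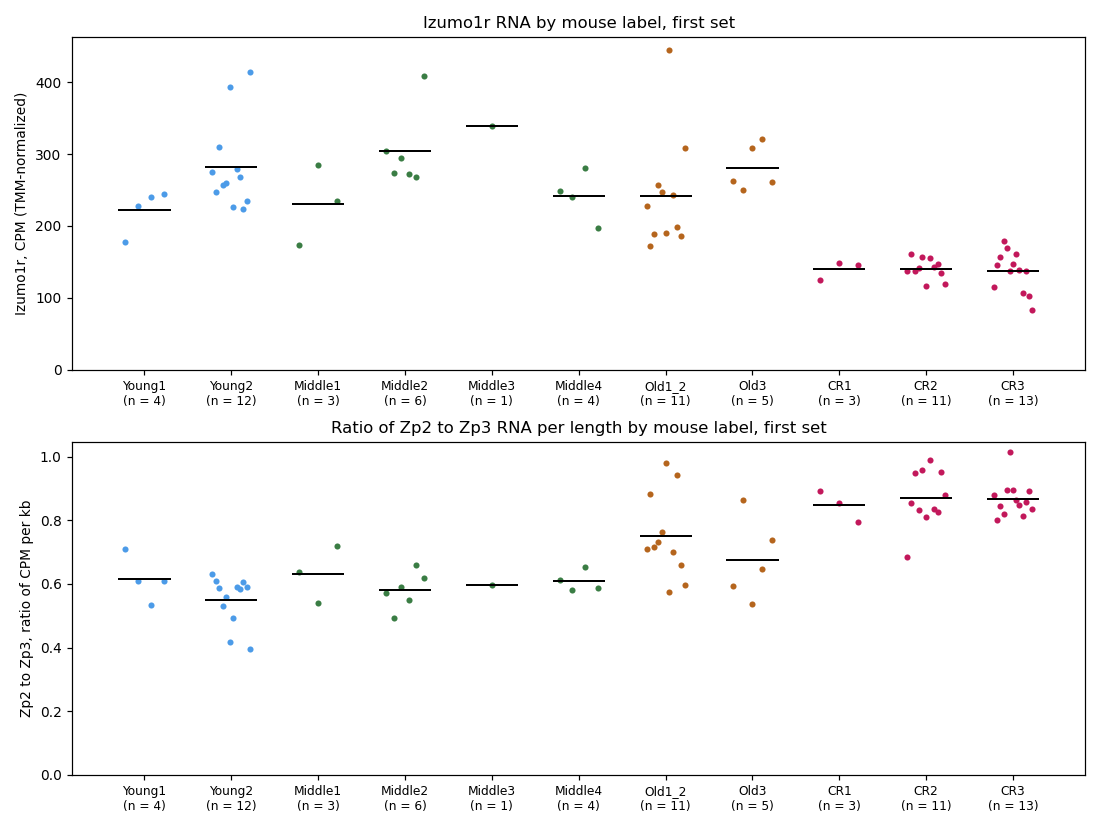
Izumo1r in CPM (upper panel) and the ratio of Zp2 to Zp3 in CPM per kilobase (lower panel) by mouse label of the first set, with 1 point per oocyte, the mean of each label as a bar and n the number of oocytes. The CR labels are lowest for Izumo1r, at 137 to 141 CPM, and highest for the ratio.

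The other members were not called between middle and CR oocytes. The log2 fold change, CR over middle, was −0.25 with an SE of 0.13 for Zp1, 0.13 with 0.17 for Zp2, −0.39 with 0.16 for Zp3, 0.13 with 0.31 for Astl and −0.09 with 0.16 for Cd9. The adjusted p was 0.189 for Zp3 and between 0.279 and 0.849 for the rest. Zp3 ranged from 797 to 2461 CPM in CR oocytes (median 1923) and from 1715 to 3279 CPM in middle oocytes (median 2385), and these ranges overlapped. With libraries as units Zp3 was called (−0.37, adjusted p = 0.00242), and so it was without Middle3 (−0.45, adjusted p = 0.0455). The sign of the value for Cd9 turned under 4 alternatives and that for Astl under 1.

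The zona genes stood in a different proportion to each other in CR oocytes. The ratio of Zp2 to Zp3 in CPM per kilobase had a median of 0.856 in CR oocytes (0.686 to 1.01) and of 0.594 in middle oocytes (0.492 to 0.721). As a value per mouse label it was 0.846 to 0.867 in the CR labels, 0.544 to 0.613 in young, 0.578 to 0.628 in middle and 0.666 to 0.741 in old ones, and 0.493 to 0.659 in every label of the second set. No other label reached the CR labels. The ratio was chosen after its values were seen and is given as a description, with no test. Diet, housing and depth cannot be told apart for it either.

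Astl was lower in old than in young oocytes by its mouse means, but was not called at the level of mice. The mouse means were 614 and 457 CPM for Young1 and Young2 and 179 and 347 CPM for Old1_2 and Old3. They did not overlap, which 2 labels against 2 can readily show without any difference. Single oocytes overlapped at 229 to 846 CPM in young (median 471) and 61.8 to 622 CPM in old (median 191). The log2 fold change, old over young, was −1.05 with an SE of 0.33 and an adjusted p of 0.506. With 2 labels in each group, 0% of 24849 genes were called, although 9.08% had an unadjusted p below 0.05. With libraries as units, it was −1.10 (adjusted p = 0.0271, 6.49% of genes called). Without Old1_2 it was −0.64, without Old3 −1.65, without Young1 −0.86 and without Young2 −1.23. Each of these fits assumes that the single remaining label varies like the others.

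The zona genes had values of −0.23 with an SE of 0.29 for Zp1, −0.22 with 0.29 for Zp2 and −0.42 with 0.30 for Zp3, old over young, with adjusted p from 0.679 to 0.828. These values turned on which old label was kept. Without Old3 they were −0.66, −0.59 and −0.84, and without Old1_2 they were 0.09, 0.06 and −0.11, each with a single old label left. Neither the young and middle nor the middle and old oocytes differed in any member at a false discovery rate of 5% (0% of genes called in both, by mouse sums and with libraries as units).

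The spread among old oocytes ran along the level of other oocyte transcripts. The summed level of the 12 oocyte markers, a list that holds no member, fell below 75% of the median oocyte in 8 of 16 old oocytes, 7 of them of Old1_2, and in 1 young, 1 middle and 2 CR oocytes. The old oocyte with the lowest sum, 28.5%, had 390 CPM of Zp3, 64.8 CPM of Astl and 172 CPM of Izumo1r, and the one with the highest, 117%, had 3456, 532 and 320 CPM. The former also held cumulus markers at 16.9% of the median cumulus library and 6.75% mitochondrial counts, against 3.21% and 0.676% in the latter. Their part in the level of the members was not tested.

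Across the 16 old oocytes, Spearman's rho with the marker sum was 0.90 for Zp1, 0.84 for Zp2, 0.87 for Zp3, 0.94 for Astl, 0.89 for Cd9 and 0.66 for Izumo1r. Across all 73 oocytes of the first set it was −0.14 for Izumo1r and 0.47 to 0.86 for the others. The former pools groups that differ in Izumo1r. Within the other groups, rho of Izumo1r was −0.07 in young, 0.30 in middle and 0.31 in CR oocytes. These values describe oocytes that share mice and are all shares of the same library totals.

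**Figure D3:**
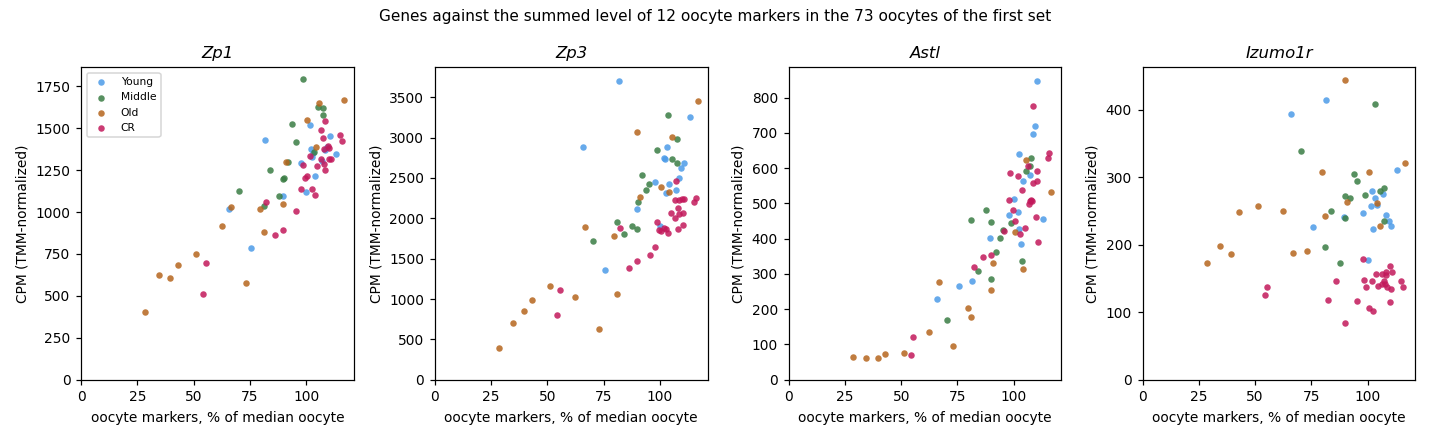
Levels of Zp1, Zp3, Astl and Izumo1r in CPM against the summed level of 12 oocyte markers in percent of the median oocyte, with 1 point per oocyte of the first set coloured by group. The lowest value of each of Zp1, Zp3 and Astl is from an old oocyte with a marker sum below 75%. CR oocytes, with marker sums of 54.3% to 116%, stand low for Izumo1r.

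In the second set no member was called between oocytes in the 4 comparisons of age that were made. Log2 fold changes ranged from −0.15 to 0.14 over these comparisons and that of hyperovulation, with SEs of 0.04 to 0.13. With libraries as units no member was called either, against 0.0116%, 0.148%, 0.89% and 0.0167% of genes from 2 to 4, 2 to 9, 2 to 14 and 9 to 14 months. By mouse sums the share of all genes called was 0% from 2 to 4 months, 0.0784% from 2 to 9 months, 0.177% from 2 to 14 months and 0.00421% from 9 to 14 months. Astl was at 337 ± 21.2 CPM at 2 months (mean ± SD of mouse means, n = 5) and 370 ± 55.9 CPM at 14 months (n = 5), with single oocytes at 212 to 475 and 233 to 471 CPM. Izumo1r was at 327 ± 17.1 and 316 ± 27.4 CPM. No oocyte at 14 months fell below 75% of the median of the oocyte markers.

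For Astl, the change from 2 to 14 months differed between the sets by −1.15 on the log2 scale, first minus second, with an SE of 0.23 and an adjusted p of 0.0235 (interaction term in edgeR, 0.794% of 27087 genes called). Without Old1_2 it was −0.75 and without Young1 −0.99, each with a single label left in that group. It was also no longer called without 2mo1, 2mo35 or 14mo38 (adjusted p of 0.0528 to 0.0625 by the same test). The other 5 members were not called by this test.

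**Figure D4:**
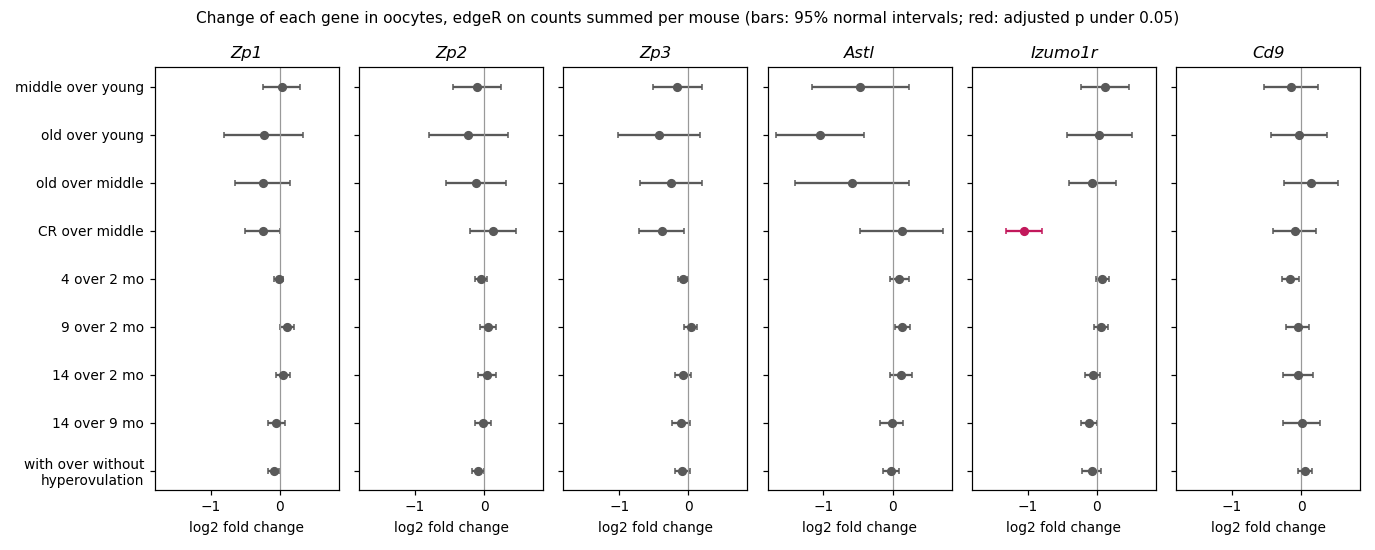
Log2 fold change of each gene in oocytes in 9 comparisons, from edgeR on counts summed per mouse label, with 95% normal intervals as bars. Izumo1r in CR over middle, at −1.05, is the only value called at a false discovery rate of 5%, and the intervals of the second set are in general narrower than those of the first.

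No member was called in oocytes between mice with and without hyperovulation at a false discovery rate of 5% (0% of 25088 genes called, and 0.0237% with libraries as units). At 2 months, Zp3 was at 2662 ± 124 CPM with (n = 5) and 2829 ± 273 CPM without (n = 8), and Izumo1r at 327 ± 17.1 and 344 ± 40.99 CPM. Within the group without hyperovulation, the 4 labels whose complex names begin with B1 had 380 ± 14.8 CPM of Izumo1r and the 4 beginning with B2 had 308.5 ± 16.97 CPM. Izumo1r was lower in B2 than in B1 in each of the 5 groups, at 335 and 314 CPM at 2 months, 360 and 334 at 4 months, 355 and 328 at 9 months and 330 and 293 at 14 months. Zp3 was also lower in B2 in each of the 5 groups, with the smallest gap at 2 months (2664 and 2658 CPM). At 9 and 14 months every member was lower in B2. What the prefix stands for is not given in the sources used here. With the prefix as a covariate no member was called in any of these comparisons.

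Within groups the 3 zona genes moved together from oocyte to oocyte. On log2 levels, taken as deviations from the group mean, Pearson's r was 0.907 to 0.938 between pairs of zona genes over 73 oocytes of the first set and 0.591 to 0.794 over 127 of the second. Between Astl and a zona gene it was 0.761 to 0.865 in the first set and 0.505 to 0.602 in the second, where it overlapped the zona pairs. Between Cd9 and a zona gene it was 0.536 to 0.686 and 0.314 to 0.543, and between Izumo1r and a zona gene 0.403 to 0.548 and 0.109 to 0.495. The lowest pair in both sets was Astl and Izumo1r, at 0.134 and 0.0201. Over the 57 oocytes of the first set outside the old group, r was 0.875 to 0.908 between zona genes. There it was 0.598 to 0.784 between Astl and a zona gene, 0.418 to 0.603 for Cd9 and 0.261 to 0.455 for Izumo1r. Over the 30 mouse labels of the second set, the genes most like the mean of the zona genes among 4083 genes of at least 50 CPM were Gnas (r = 0.807), Gm20721 (0.800), Dnaja3 (0.792), Calr (0.750) and Ddost (0.727). Gm20721 lies within Gnas on the other strand, and since the libraries keep no strand their reads cannot be told apart. The median r over all genes was −0.10, and 2.47% of genes exceeded 0.5. Cd9 ranked 21 (0.613), Izumo1r 73 (0.535) and Astl 325 (0.357). These values are descriptions over mice whose levels are all shares of a library.

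All 6 members were called higher in oocytes than in cumulus cells in both sets, where 81.4% and 88.4% of all genes were called in either direction and the median log2 fold change of all genes was 0.03 and −0.31. In every one of the 70 and 127 complexes with both libraries, the oocyte had the higher CPM of each member. With the mouse label as a block they were again all called (77.9% and 86% of genes), as they were with libraries as units (85.1% and 87.4%). Cd9 differed least, by 3.84 (SE 0.15) on the log2 scale in the first set and 3.61 (SE 0.07) in the second. Its ratio of oocyte to cumulus CPM within a complex had a median of 7.42 and 9.31 and a minimum of 1.94 and 2.9952. The CPM were normalized within each cell type, whereas the test normalized both cell types together. These ratios and the log2 values are therefore not on the same scale.

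Cd9 was detected in every cumulus library. Its mean over mouse labels was 11.4 ± 1.58 CPM in young (n = 2), 6.68 ± 2.39 in middle (n = 4), 9.55 ± 0.443 in old (n = 2) and 9.69 ± 2.48 in CR (n = 3) cumulus cells. In the second set it was 11.5 ± 3.82 CPM at 2 months (n = 5), 9.35 ± 1.25 at 4 months (n = 8), 9.43 ± 2.28 at 9 months (n = 4) and 9.85 ± 2.73 at 14 months (n = 5). Without hyperovulation it was 7.75 ± 2.47 CPM (n = 8), and mouse means overlapped at 4.18 to 11.4 CPM without and 6.45 to 16.8 CPM with it. The log2 fold change, with over without, was 0.59 with an SE of 0.26 and an adjusted p of 0.332 (0.863% of 25828 genes called). With libraries as units it was called (0.60, adjusted p = 0.0198, 11.8% of genes called). Reads of Cd9 can be shared with the pseudogene Cd9-ps and with the opposite-strand genes Gm28809 and Gm26728, whose medians were at most 4.28 CPM.

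The zona genes, Astl and Izumo1r were at or near 0 in cumulus cells. Counts of Zp1, Zp2 and Zp3 together were 0 in 44 of 71 cumulus libraries of the first set and 95 of 128 of the second. Pooled over a group, they came to 0.00275% (exact Poisson interval 0.000749% to 0.00704%) of the oocyte level at 2 months and up to 0.114% (0.0958% to 0.134%) in young cumulus cells. One library of Young2 held 92 of the 142 counts of the young group, and without it the share was 0.0434%. In CR cumulus cells one library held 237 of 317 counts, and the share was 0.102% with and 0.0267% without it. At 2 months the share rested on 4 counts. These intervals cover counting error only, as reads carried no molecular identifiers. Of the libraries of the first set 6 held 10 or more zona counts, namely 3 of Young2, 2 of CR3 and 1 of Old1_2, and the highest held 237. The highest library was at 1.90% of the oocyte level of the markers and 2.35% of that of the zona genes, and that of Old1_2 at 0.388% and 0.133%. Spearman's rho between the 2 shares was 0.49 over all 71 cumulus libraries of the first set. It was 0.35 without the 5 libraries with the most zona counts, and −0.21 over the 128 libraries of the second set. The part of oocyte RNA in the cumulus libraries was not tested.

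Of these 5 genes, only those with counts in at least 5 of the libraries compared were tested between cumulus groups, at most 4 of them in one comparison (young and old) and none in 3 comparisons of the second set. No member was called by mouse sums, where 0% of genes were called from young to middle, middle to old, middle to CR, 2 to 4 and 9 to 14 months, 0.0081% from 2 to 9 months and 0.159% from 2 to 14 months. With libraries as units none was called in these comparisons either, against 1.34%, 0.0362%, 3.3%, 0.428%, 0.116%, 1.76% and 1.41% of genes in the same order. Zp3, at 75 pooled counts in young and 6 in old cumulus cells, had −3.48 with an adjusted p of 0.324 (0.431% of genes called), and 54 of the 75 counts came from one library. Zp1, at 22 pooled counts in 11 of 32 libraries without hyperovulation and 2 counts in 1 of 24 libraries with it, had −2.61 with an adjusted p of 0.165. With libraries as units both were called (adjusted p = 0.0337, 3.61% of genes called, and adjusted p = 0.00864).

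**Figure D5:**
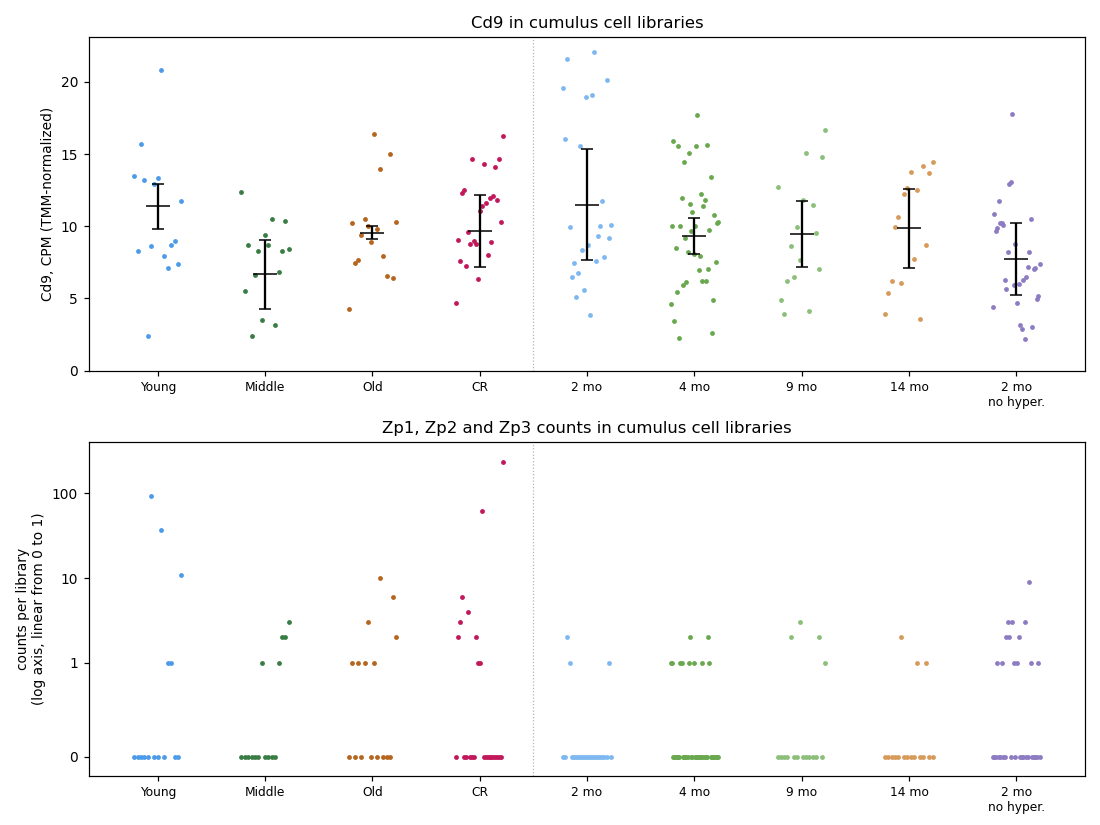
Cd9 in CPM in cumulus cell libraries with the mean ± SD of the mouse means (upper panel, linear axis) and the summed counts of Zp1, Zp2 and Zp3 per library (lower panel, log axis that is linear from 0 to 1). Cd9 is above 0 in every library, and the zona counts are 0 in most, with the highest at 237 in a CR library.

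A list of 38 other genes of the same processes was followed alongside, covering zona gene regulators, oocyte-secreted relatives, zona protein processing, tetraspanins and integrins, GPI anchoring, cortical granule exocytosis, calcium and zinc. Between middle and CR oocytes 3 of the 38 were called higher and 4 lower, where 7.61% of all genes were called, with a median log2 fold change of −0.08 against −0.01 over all genes. Plac1, a zona-domain protein gene first known from placenta, had −3.09 with an SE of 0.40. Fetub, whose protein fetuin-B inhibits ovastacin, had −0.77, Gpaa1, a subunit of the GPI transamidase that attaches anchors such as that of JUNO, −0.86, and Rab3a, a GTPase of granule exocytosis, −0.71. Trpm7, a channel that passes calcium and magnesium, had 0.86, and Itgb1, the integrin beta 1 subunit, 0.57. No gene of the list was called by mouse sums in another comparison within oocytes or within cumulus cells. Between cell types, 23 of the 38 were called higher and 11 lower in oocytes of the first set, and 24 and 13 in the second, where 81.4% and 88.4% of all genes were called.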

How the data were processed

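Counts of RamDA-seq reads per gene, in 399 of 401 libraries, were analysed. Trimmed reads had been aligned by the authors to GRCm38 (HISAT2 2.0.5), and featureCounts 1.5.1 with GENCODE annotation gave counts in which multi-mapped reads are split. The deposited expected count values were therefore not always whole (36.8% and 35.1% of nonzero values in the 2 sets were not). The authors also deposited RPKM values, which for CR libraries do not follow exactly from the counts (Izumo1r 0.909 to 1.14 times the recalculated value, and 1 in all other groups). One complex was left out, as its library labelled oocyte held no oocyte by its markers, and the study also removed a pair without an oocyte. Symbols and coordinates came from GENCODE vM21.

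Counts were summed per mouse label and cell type, rounded and tested with the quasi-likelihood F test of edgeR 4.0.16 in R 4.3.3 (TMM, genes detected in 5 or more of the compared libraries, Benjamini-Hochberg over all genes, 5% false discovery rate). This differs from the study, which tested libraries, a test kept as an alternative. The design had taken values for whole counts, so sums were rounded. Other alternatives were DESeq2 1.42.0, RLE factors, filterByExpr, no filter, one fit of all groups, the left-out complex restored, omission of each mouse label of groups with up to 5 labels, the mouse label as a block and, added after seeing the data, limma 3.58.1 on log2(RPKM + 1), oocytes without those above 10% of cumulus markers, zona counts without the highest cumulus library of a group and interaction terms. Scripts were tested on simulated data. Mouse labels served as replicates, so p-values measure the spread between labels.

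The members, the lists and the tests were chosen with earlier results of these data known. Named were the 6 members, genes of the list of 38 that were called (up to 6 per comparison by absolute log2 fold change) and the 5 genes most like the zona genes. The 12 oocyte and 12 cumulus markers were fixed lists.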

Additional observations from a re-analysis of the deposited data

Results flagged for a closer look

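The mouse means of 42 groups were examined for a mouse far from the others, of which chance flags about 1 in 20. Cd9 in oocytes of the label Middle2 was at 94.9 CPM, against 65.3 CPM in the nearest and 61.1 CPM in the farthest of the other 3 middle labels. Zp1 in oocytes of the 4-month label 4mo25 was at 1492 CPM, against 1410 CPM in the nearest and 1344 CPM in the farthest of the other labels.

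The change of Astl from 2 to 14 months differed between the sets by −1.15 on the log2 scale. Leaving out one mouse label gave −1.68 to −0.75, and the call was lost without Young1, Old1_2, 2mo1, 2mo35 or 14mo38. To 9 months the same term was −0.61 with an SE of 0.31 and an adjusted p of 0.99996.

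The left-out library labelled oocyte of Middle3 held 27.997 CPM of Izumo1r (48 counts), which was 10.3% of the mean of middle oocytes and above the highest cumulus library (6.75 CPM). Zp1, Zp2, Zp3 and Astl in it were at 0.137% to 0.687% of the mean of middle oocytes, with oocyte markers at 0.889%.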

How the results depend on the processing

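The lower Izumo1r of CR oocytes kept its direction under every alternative run (−1.10 to −0.80) and was called under all but that with all deposited libraries. The number of members called from middle to CR oocytes was 1, and 2 with libraries as units, 0 with all deposited libraries and 1 to 2 with one label left out. Over all genes 2061 were called, against 7525 with libraries as units, 4 with all deposited libraries and 3417 without Middle3. From young to old oocytes 0 members were called, and 1 with libraries as units and 1 without a filter, and over all genes 0, 1613 and 553. Fits of young and old without one label leave a single label in a group, so their calls are not counted here. In cumulus cells 0 members were called by mouse sums. With libraries as units 1 was called from young to old (3.61% of genes called) and 2 for hyperovulation (11.8%). Without a filter 1 was called from young to middle and 2 from young to old. The share of all genes in those fits is not given here, so the counts are not a result about the members. Between middle and CR oocytes the value for Astl turned without Middle3 (−0.058; −0.058 to 0.41 over labels left out), and that for Cd9 with all deposited libraries (0.087), without Middle2 (0.12), without CR3 (0.013) and without oocytes above 10% of cumulus markers (0.032; −0.13 to 0.12 over labels left out). Between young and old oocytes Zp1 ran from −0.66 to 0.088 and Zp2 from −0.59 to 0.056. The cause was not tested. Of 1100 refitted member values 57 changed sign, none of them called.

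With the mouse label as a replicate block, the 6 members stayed called between oocytes and cumulus cells in both sets (77.9% and 86% of genes called), with Cd9 at 3.87 and 3.62. Between groups of one cell type no paired analysis was possible because each mouse belongs to one group.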
